A study of Mus musculus with 2 samples.

Results

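Potassium channel genes with a Kcn symbol were described here, without the G protein-gated inward rectifiers Kcnj3, Kcnj5, Kcnj6 and Kcnj9, the small-conductance channels Kcnn1, Kcnn2 and Kcnn3, and the antisense transcript Kcnq1ot1. A gene counted as a member where both libraries together held at least 20 UMIs of it (unique molecular identifiers, each standing for 1 counted RNA molecule). Of the 99 Kcn rows among 32285, 8 were named out and 29 lay under that total, which left 62 members. Across all rows of the matrices, 14557 reached 20 UMIs. The members just inside the threshold were Kcnk6 with 20 UMIs, Kcnd3os with 22 and Kcnh3 with 23, and just outside it stood Kcnn4 with 19 and Kcna3 and Kcnj4 with 16 each. Since the total chose the members, it is given as a description only. Scarce members may have reached the threshold only through the cells where they are high, and such differences are then descriptions too.

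Potassium channels let potassium leave the cell and so set the resting potential, end the action potential and space the spikes of a train. Voltage-gated (Kv) channels are built from pore-forming alpha subunits, joined by silent alpha subunits that do not form a channel alone and by beta or KChIP subunits that change how the pore opens or reaches the membrane. Inward rectifiers and 2-pore (leak) channels hold the resting potential, and in glia they carry potassium away from active neurons. Locus coeruleus (LC) neurons, the main noradrenaline source of the forebrain, fire slowly on their own, and the currents between their spikes pass in part through such channels.

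The series holds 2 single-cell RNA libraries of the dissected LC, prepared from wild-type mice, male and female, with no treatment named, of the C57BL/6N strain at an age of 3 to 4 weeks. They form a single group (n = 2). The number of mice in each is not given, and the labels describe papain-dissociated, methanol-fixed cells as well as sorted nuclei without saying which library was which. Comparisons were therefore made between cell classes within each library, and "cell" stands below for cell or nucleus. Library 1 held 304 barcodes, 5600693 UMIs and a median of 11010 UMIs per barcode, and library 2 held 2796 barcodes, 6895380 UMIs and a median of 1517. No barcode sequence was shared between them (0), and 294 and 2678 cells remained after filtering. These 2972 cells stand beside the 2578 that the series states, and 2557 of them had at least 500 detected genes. Members made up 43919 UMIs (0.784%) of library 1 and 49661 (0.72%) of library 2.

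Cells were clustered on cell type marker genes alone, none of them a Kcn gene, and 10 classes took a name. The noradrenergic-like class held 12 cells in library 1 and 77 in library 2, and all 8 noradrenergic markers reached 10 CPM (UMIs of a gene scaled to 1000000 UMIs of the class) in both libraries. Those markers summed to 9659 and 7252 CPM there against 142 and 115 CPM in the other neurons. Trigeminal-like neurons, the jaw proprioceptors of the mesencephalic nucleus beside the LC, numbered 11 and 48 cells, and cerebellar granule-like neurons 37 and 47. Inhibitory-like neurons numbered 32 and 195, excitatory-like neurons 29 and 173, and neurons without a name 79 and 677. Among non-neuronal cells there were 15 and 288 astrocyte-like, 38 and 698 oligodendrocyte-like, 11 and 79 precursor-like (oligodendrocyte precursors), 19 and 109 ependymal-like and 9 and 218 vascular-like cells. A last cluster of 2 and 69 non-neuronal cells had no name and carried microglial genes.

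Neurons carried about the same summed level of members in both libraries, 8913 and 9162 CPM in libraries 1 and 2, against 3045 and 3153 CPM in non-neuronal cells. Trigeminal-like neurons had the highest sums (13310 and 12490 CPM), followed by granule-like neurons (12620 and 10000 CPM). Noradrenergic-like cells had the lowest sums of the named neuron classes, 6525 and 6566 CPM. Precursor-like cells, with 8722 and 7263 CPM, and astrocyte-like cells, with 5991 and 6200 CPM, lay far above oligodendrocyte-like cells with 1754 and 2366 CPM and vascular-like cells with 589 and 1806 CPM. These sums rest on few genes. Kcnip4, which encodes a KChIP subunit of Kv4 channels (chromosome 5, 48389502 to 49524907, minus strand, GRCm38), gave 26.3% of all 93580 member UMIs, Kcnd2 11.6%, Kcnb2 7.94%, Kcnma1 6.82% and Kcnq3 5.98%, together 58.6%.

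Among the members, longer genes tended to hold more UMIs: over the 62 members, UMIs correlated with the genomic span at a Spearman rho of 0.63 and with the exon length at 0.67. This is a description across genes of the same 2 libraries, which are not independent replicates. The UMI total also chose the members, so Kcn rows under the threshold are not in it. Per kilobase of span the order of the genes was another one. Kcna1, with a span of 5.99 kb, had 102.5 UMIs per kb and Kcna2 had 72.7, while Kcnip4 had 21.7 over its 1135 kb. Levels are therefore compared below between classes for 1 gene and not between genes. In the GENCODE M21 annotation, 4 members overlapped another gene on the same strand and 25 a gene on the opposite strand, among them the pair Kcnd3 and Kcnd3os, Kcnmb4 and its antisense transcripts, and Kcnq1 with Kcnq1ot1. Whether the counting used strand is not given in the sources used here, so reads of such pairs may not be told apart.

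**Figure D1:**
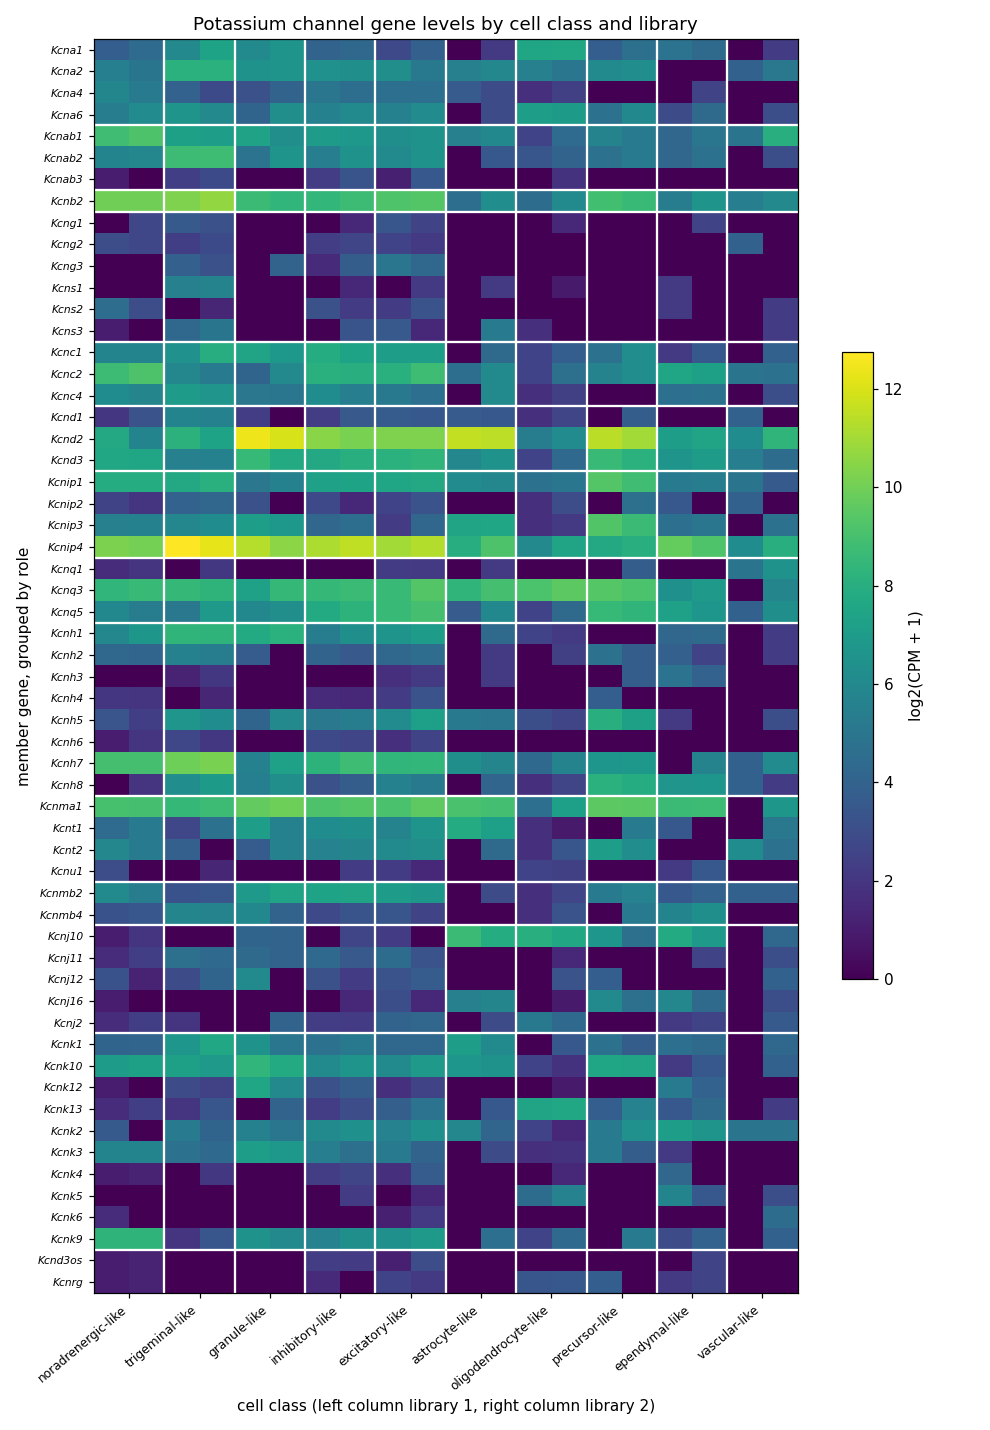
Each cell of the map gives log2(CPM + 1) of 1 member (rows, grouped by role and parted by white lines, 58 of the 62 members drawn) in 1 library of a class (columns, library 1 left and library 2 right). Kcnip4 and Kcnd2 are bright in many classes, while Kcns1, Kcnk13 and Kcnq1 stand out in 1 class each.

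In 38 of the 62 members the same class had the highest level of the 10 named classes in both libraries, at a mean of at least 10 CPM. That class was trigeminal-like for 12 members, granule-like for 5, and noradrenergic-like for 4 (Kcnab1, Kcnk9, Kcnc2 and Kcna4). Oligodendrocyte-like cells led for 4 members (Kcna1, Kcna6, Kcnk13 and Kcnj2) and precursor-like cells for 4 more (Kcnip1, Kcnip3, Kcnh5 and Kcnh8). Astrocyte-like cells led for 3, with Kcnj10 and Kcnt1 among them, excitatory-like neurons for 2 (Kcnq5 and Kcng3), ependymal-like cells for 2 (Kcnk2 and Kcnh3), inhibitory-like neurons for Kcnmb2 and vascular-like cells for Kcnq1. These are levels without a test. Among the 51 members with at least 50 UMIs the number was 36, and with every cell given equal weight it was 33 of 62.

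Noradrenergic-like cells were set against all other neurons, to see which potassium channel genes differ between LC neurons and their neighbours. Kcnab1, the gene of a beta subunit that gives Kv1 channels fast inactivation, and Kcnk9, a TASK-type leak channel gene, were each several times as high in the noradrenergic-like cells, and the Kv3 gene Kcnc2 was also higher. The A-type channel gene Kcnd2, the Kv7 gene Kcnq5 and Kcnh5 were lower, as were most other called members. Of the 49 members tested, 6 were higher, 27 were lower and 16 did not pass an adjusted p of 0.05 (edgeR's quasi-likelihood test, Benjamini-Hochberg adjustment over all 11628 genes tested). That is 12.2% higher and 55.1% lower, where all genes tested gave 16.6% higher and 16.3% lower (32.9% in either direction). All 33 called members had the same sign in both libraries, and 27 of them differed by at least 2-fold. The median log2 fold was -1.14 over the tested members and -0.01 over all genes.

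**Figure D2:**
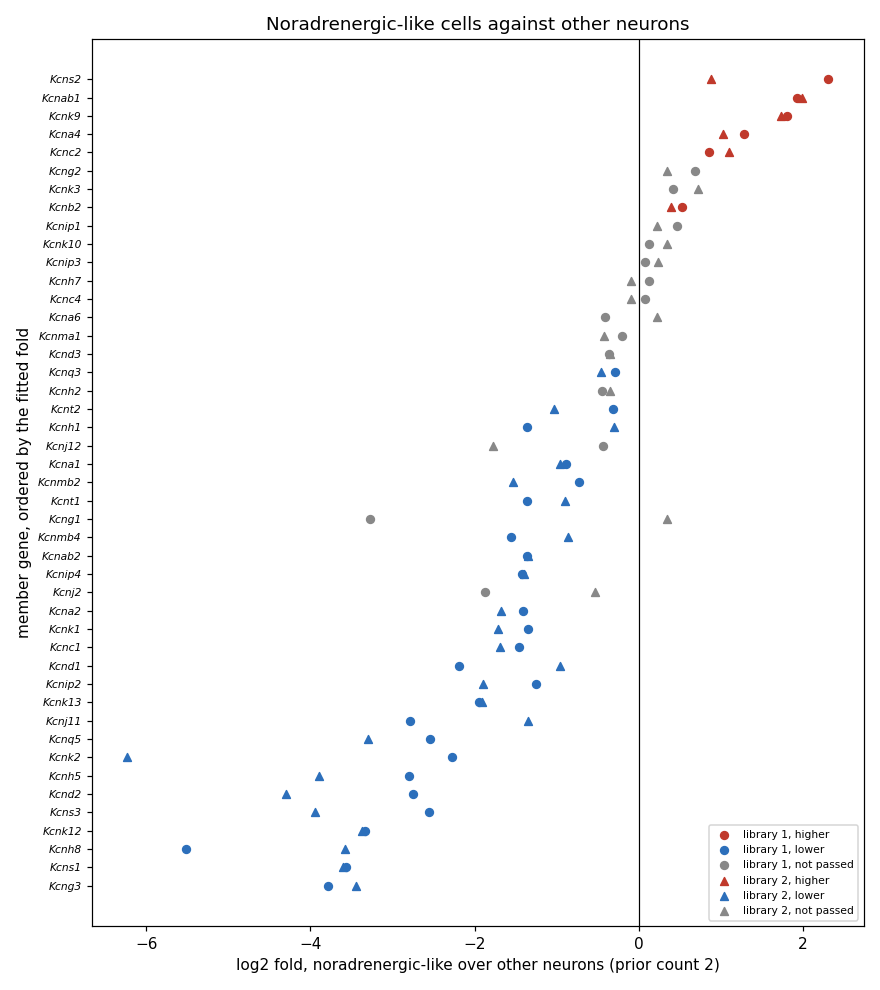
For 45 of the 49 tested members (vertical axis, ordered by fitted fold) the horizontal axis gives the log2 fold of noradrenergic-like cells over other neurons in library 1 (circles) and library 2 (triangles), red where higher, blue where lower and grey where the test was not passed. Kcnab1 and Kcnk9 sit near 2 in both libraries, and the blue points reach far to the left.

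Kcnab1 lies on chromosome 3 (65109384 to 65378223, plus strand, GRCm38). Its level was 460.6 CPM in the noradrenergic-like cells of library 1 and 581.5 CPM in those of library 2, against 115.7 and 141.6 CPM in the other neurons. Both libraries of the class lay above both of the others, and all 12 noradrenergic-like cells of library 1 and 71 of the 77 in library 2 held a UMI of it. The log2 fold was 1.97 ± 0.14 (SE, n = 2 libraries, edgeR adjusted p 2.16e-09), and the next class by mean level, the trigeminal-like neurons, had 152.5 and 140.4 CPM. RefSeq gives Kcnab1 3 start sites, shown here because Kcnab1 had the smallest adjusted p of the higher members. The first of these starts lies upstream of the span given above, which comes from GENCODE M21, and so outside it. The lines give the 250 bases upstream of each start (GRCm38.p6, chr3:64948962-64949211, chr3:65108764-65109013 and chr3:65187853-65188102, plus strand, 5′ to 3′), with the E-box CACGTG in capitals where it occurs, which is at the second and the third start.
Kcnab1 start 1: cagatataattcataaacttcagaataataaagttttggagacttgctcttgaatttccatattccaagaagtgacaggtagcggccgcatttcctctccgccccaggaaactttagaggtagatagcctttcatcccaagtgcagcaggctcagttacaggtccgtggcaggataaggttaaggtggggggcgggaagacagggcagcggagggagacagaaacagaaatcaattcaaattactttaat
Kcnab1 start 2: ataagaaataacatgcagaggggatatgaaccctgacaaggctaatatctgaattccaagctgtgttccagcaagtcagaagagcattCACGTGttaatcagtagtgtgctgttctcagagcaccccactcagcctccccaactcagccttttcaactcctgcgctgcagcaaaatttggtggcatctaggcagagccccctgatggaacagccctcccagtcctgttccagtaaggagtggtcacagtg
Kcnab1 start 3: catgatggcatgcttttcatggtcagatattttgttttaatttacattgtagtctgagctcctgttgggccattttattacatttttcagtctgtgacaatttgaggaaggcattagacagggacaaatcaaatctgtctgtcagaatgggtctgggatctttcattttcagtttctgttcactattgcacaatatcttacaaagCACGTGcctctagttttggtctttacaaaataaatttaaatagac

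In noradrenergic-like cells Kcnk9 (chromosome 15, 72501089 to 72546340, minus strand) reached 310.7 and 309.0 CPM, and other neurons had 84.8 and 89.6 CPM, a log2 fold of 1.78 ± 0.15 (SE, n = 2, edgeR adjusted p 2.1e-08). Of the other named classes the excitatory-like neurons came next with 83.4 and 118 CPM, and the trigeminal-like class, the other large neurons of the dissection, had 2.75 and 9.57 CPM. Kcnk3, the related TASK-type gene, had 52.6 and 52.0 against 37.5 and 30.2 CPM and did not pass (0.57 ± 0.23, edgeR adjusted p 0.065). Of the 10 leak channel members 7 were tested, with Kcnk9 higher, Kcnk1, Kcnk2, Kcnk12 and Kcnk13 lower and Kcnk3 and Kcnk10 not passing. That is 14.3% higher and 57.1% lower, where all genes tested gave 16.6% and 16.3%. Kcnk2, of the stretch- and lipid-sensitive TREK type, fell by 3.29 ± 0.45 log2 units, from 55.1 and 67.6 CPM in other neurons to 11.1 CPM in library 1 and no UMI in library 2. Kcnk12, a THIK-type gene, had 1 UMI in the class, a pooled ratio of 0.0448 to the other neurons (95% interval 0.00112 to 0.256, counting error only).

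Among the Kv1 to Kv4 pore genes the class differed from gene to gene. Kcnc2 (chromosome 10, 112271121 to 112467024, plus strand), a Kv3 gene of the kind that serves fast repolarization, had 424.1 and 571.6 CPM against 225.5 and 259.2 CPM in other neurons (log2 fold 0.98 ± 0.14, edgeR adjusted p 2.04e-05). Its relative Kcnc1, at 52.6 and 52.0 CPM against 140.7 and 165.5, fell by 1.58 ± 0.19 log2 units. Kcnc4 did not pass, with 71.9 and 54.8 against 65.6 and 57.2 CPM. The same split was seen in the Kv1 genes, where Kcna4, of the rapidly inactivating kind, had 56.7 and 36.5 against 22.0 and 17.0 CPM (1.20 ± 0.26, edgeR adjusted p 0.00136). Kcna2 fell by 1.54 ± 0.21 log2 units, from 115.4 and 94.0 to 44.5 and 29.5 CPM, and Kcnab2, the other abundant beta subunit gene, fell by 1.37 ± 0.19. Kcna6 had 40.5 and 70.2 against 52.0 and 58.5 CPM and did not pass.

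Kcnd2 (chromosome 6, 21215503 to 21729805, plus strand) encodes a Kv4 pore of the subthreshold A-type current. It stood at 206.5 and 53.4 CPM in noradrenergic-like cells against 1338 and 1042 CPM in other neurons, a log2 fold of -3.35 ± 0.23 (SE, n = 2, edgeR adjusted p 1.08e-09). In library 1, 83 of its 204 UMIs in the class came from 1 cell. The other abundant Kv4 gene, Kcnd3, had 193.3 and 178.4 against 239.6 and 221.5 CPM and did not pass (-0.36 ± 0.15, edgeR adjusted p 0.0741). Kcnip4 fell by 1.41 ± 0.13 log2 units, from 3050 and 2793 to 1185 and 1091 CPM. Kcnip1, another KChIP gene, had 237.9 and 238.8 against 164.9 and 199.8 CPM and did not pass.

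Genes of the Kv7 family, known for slow, non-inactivating potassium currents, were described next. Kcnq5 had 59.7 and 39.3 CPM in noradrenergic-like cells against 338.1 and 385.1 CPM in other neurons, a log2 fold of -2.88 ± 0.20 (SE, n = 2, edgeR adjusted p 9.13e-10). Kcnq3 differed by less, at 331.0 and 383.4 against 390.6 and 514.5 CPM (-0.38 ± 0.14, edgeR adjusted p 0.0426).

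The EAG, ERG and ELK family includes slow and subthreshold voltage-gated channels. Of its 5 members tested, 0 were higher, 3 were lower and 2 did not pass, where 16.6% of all genes tested were higher and 16.3% lower. Kcnh5 fell by 3.34 ± 0.34 log2 units, from 66.2 and 73.4 to 9.11 and 4.21 CPM, and Kcnh8 had 2 UMIs in the class, a pooled ratio of 0.0289 (95% interval 0.00348 to 0.105). Kcnh7, of the ERG type, had 508.1 and 500.0 against 446.8 and 518.4 CPM and did not pass. The silent subunits are scarce genes that alter Kv2 channels. Kcns2 had 22.3 and 7.02 CPM (22 and 5 UMIs) against 3.61 and 3.30 CPM, a log2 fold of 2.01 ± 0.51 (SE, n = 2, edgeR adjusted p 0.00475). No UMI of Kcns1 or Kcng3 was seen in the class, at least 5.56-fold and 5.72-fold lower against a floor of 3 counts over both libraries, and Kcns3, with 1 UMI, had a pooled ratio of 0.0507 (0.00127 to 0.290). The Kv2 pore gene Kcnb2 had 1000 and 1001 against 666.1 and 742.1 CPM (0.46 ± 0.13, edgeR adjusted p 0.00978). Kcnma1, the pore gene of the large-conductance calcium-activated (BK) channel, had 523.3 and 512.7 against 582.1 and 670.9 CPM and did not pass (-0.32 ± 0.14, edgeR adjusted p 0.0804), while both BK beta genes, Kcnmb2 and Kcnmb4, were lower.

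The trigeminal markers summed to 9.11 and 18.3 CPM in noradrenergic-like cells (0 of 6 at 10 CPM in both libraries, no UMI of Runx3) and to 532.4 and 501.1 CPM in the other neurons, which include the trigeminal-like class. The oligodendrocyte list was at 321.9 and 185.4 against 288.8 and 453.8 CPM, with 2 and 3 of 10 at 10 CPM. The part of either in the results was not tested, but without trigeminal-like and granule-like neurons among the other neurons the calls of Kcna1, Kcnab2, Kcnd1, Kcnh1, Kcnk1 and Kcnmb4 ended, Kcna1 turned to a log2 fold of 0.53, and Kcns1 and Kcnk12 had too few UMIs to be tested. Of the 34 and 37 Kcns1 UMIs in other neurons, 33 and 32 came from the trigeminal-like class, and of the 64 and 31 Kcnk12 UMIs, 46 and 4 came from the granule-like class. DESeq2 called 3 members higher and 11 lower, and the calls of Kcns2, Kcna4, Kcnb2, Kcnk2, Kcnk12, Kcns3 and Kcnq3 were among the 17 it ended, while it gave no adjusted p for Kcng3 and Kcns1. The calls of Kcnb2 and Kcnq3 also ended without the library as a block, those of Kcnb2 and Kcns3 at a finer cluster resolution, and those of Kcnq3 and Kcns1 where noradrenergic cells were gated by their markers (19 and 73 cells).

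Genes that work with these channels were read from lists without Kcn symbols. Of the 19 channel partners 15 were tested, 3 were higher and 5 lower in noradrenergic-like cells, with a median log2 fold of -0.26. That is 20.0% higher and 33.3% lower, where all genes tested gave 16.6% and 16.3%. Dpp6, an accessory subunit of Kv4 channels, had 2360 and 2857 against 1591 and 1536 CPM (0.68 ± 0.13, edgeR adjusted p 0.000383), and its relative Dpp10 fell by 1.5 ± 0.15 log2 units. Of the 11 potassium pump and cotransporter genes 9 were tested, with 3 higher and 3 lower (33.3% each). Atp1b1, a sodium-potassium pump beta subunit gene, had 1933 and 1275 against 779.8 and 590.7 CPM, a log2 fold of 1.16 ± 0.13 (edgeR adjusted p 7.8e-07). Slc12a5, the chloride-extruding cotransporter gene of mature neurons, fell by 1.06 ± 0.20 log2 units.

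Neurons as a whole were set against non-neuronal cells next, to see which members are neuronal in this dissection. Most were: 55 members were tested, 34 were higher in neurons (61.8%, against 25.0% of all 13480 genes tested), 7 were lower (12.7%, against 23.0%) and 14 did not pass (background 48.0% in either direction). The median log2 fold was 1.62 over the tested members and 0.08 over all genes, and all 41 called members had the same sign in both libraries. Both Kv1 beta genes and all 3 Kv4 genes that were tested were higher in neurons. Inward rectifiers differed, with 3 of 5 lower and 1 higher.

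Kcnh1, an EAG gene, had 125.4 and 122.8 CPM in neurons against 7.44 and 8.66 CPM in the other cells, a log2 fold of 3.90 ± 0.28 (SE, n = 2, edgeR adjusted p 9.5e-06). Among the further members with large folds were Kcnh7 (3.51 ± 0.28), Kcnc1 (3.43 ± 0.33), the BK beta gene Kcnmb2 (3.37 ± 0.28), Kcnb2 (3.29 ± 0.20), Kcnk3 (3.25 ± 0.37) and Kcnk9 (3.23 ± 0.41). The silent subunit genes Kcng3 and Kcng2 had 1 UMI each in non-neuronal cells, with pooled ratios of 24.7 (95% interval 4.29 to 988) and 13.5 (2.29 to 547). Since Kcng3 and Kcng2 became members only through neurons, these ratios are descriptions. Kcnd2, although abundant in neurons, was higher by 0.74 ± 0.17, and astrocyte-like and precursor-like cells carried it at 1998 to 3059 CPM.

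The 7 members lower in neurons were led by Kcnk5, a leak channel gene, with 0 and 3 UMIs in neurons and 24 and 69 in other cells (pooled ratio 0.0109, 95% interval 0.00221 to 0.0329). Since Kcnk5 became a member only through non-neuronal cells, its ratio is a description. Kcnj10, the glial inward rectifier that buffers extracellular potassium, had 2.84 and 3.68 against 222.2 and 163.1 CPM, a log2 fold of -5.86 ± 0.30 (SE, n = 2, edgeR adjusted p 2.7e-06). Kcnj16, which forms heteromers with it, fell by 3.46 ± 0.50 log2 units, and the THIK-type leak channel gene Kcnk13 fell by 3.05 ± 0.25, from 78.7 and 115.9 to 8.29 and 15.6 CPM. Kcnrg, which encodes a soluble regulator of Kv channels, fell by 2.55 ± 0.71, Kcna1 fell by 1.78 ± 0.24 and Kcnj2 fell by 1.24 ± 0.38. Pan-neuronal markers summed to 8045 and 7893 CPM in neurons and 1008 and 1678 CPM in other cells, of which 9 of 10 were at 10 CPM there in both libraries. The oligodendrocyte list stood at 296.0 and 409.9 CPM in neurons and at 20710 and 16760 CPM in other cells, and the part of RNA carried over between cells was not tested. DESeq2 ended 11 calls, among them Kcng2, Kcng3, Kcnd1, Kcnd2, Kcnj2 and Kcnrg, and a finer cluster resolution ended those of Kcnd2 and Kcng2.

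Trigeminal-like neurons differed from the other neurons in both directions. The silent subunit gene Kcns1 was far higher, the Kv1 genes Kcna1 and Kcna2 and the beta subunit gene Kcnab2 were higher, and Kcnk9, Kcnmb2, Kcnt2, Kcnc2 and Kcnd3 were lower. Of 48 members tested 19 were higher (39.6%, against 16.6% of all 11665 genes), 14 were lower (29.2%, against 18.3%) and 15 did not pass, where 35.0% of all genes were called in either direction. The median log2 fold was 0.56 over the tested members and -0.06 over all genes. All 33 called members had the same sign in both libraries. All 5 EAG, ERG and ELK members tested were higher, and all 3 tested members of the calcium- and sodium-activated group were lower. DESeq2 ended the calls of Kcnh2 and Kcnh5 in the first group and of Kcnt2 in the second, and the Kcnh5 call also ended without the low-count filter and without the library as a block.

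Kcns1 lies on chromosome 2 (164163619 to 164171113, minus strand). It had 45.4 and 51.1 CPM in trigeminal-like neurons, 33 and 32 UMIs from 8 and 18 cells, against 0.26 and 1.34 CPM in the other neurons, and in no other named class did it pass 3.47 CPM in either library. The log2 fold was 5.84 ± 0.52 (SE, n = 2). Of 83 Kcns1 UMIs in all, those outside the trigeminal-like class lie under the total that made a gene a member. Kcns1 became a member only through this class, so its fold is a description. The 250 bases upstream of its start are shown because this is the neuronal member with the largest fold named in this comparison (RefSeq, GRCm38.p6, chr2:164171114-164171363, minus strand, 5′ to 3′). The letters hold no E-box, TATA motif or GC box on either strand (their letters are given with the promoter counts).
Kcns1 start: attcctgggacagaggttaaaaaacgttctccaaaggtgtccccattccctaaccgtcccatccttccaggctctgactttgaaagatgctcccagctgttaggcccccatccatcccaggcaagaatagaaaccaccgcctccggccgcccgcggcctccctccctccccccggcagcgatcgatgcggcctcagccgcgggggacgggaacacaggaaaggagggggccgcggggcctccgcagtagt

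Kcna1, of the low-threshold Kv1 type, had 63.2 and 167.5 CPM in trigeminal-like neurons against 14.0 and 15.6 CPM in other neurons, a log2 fold of 2.85 ± 0.27 (edgeR adjusted p 6.95e-24). The oligodendrocyte markers, of the class where Kcna1 was highest, were lower here than in other neurons (100.3 and 129.2 against 332.9 and 457.1 CPM, 2 and 3 of 10 at 10 CPM). Kcna2 had 284.5 and 277.6 against 65.3 and 50.8 CPM (2.27 ± 0.24), and Kcnab2 had 420.5 and 443.6 against 58.9 and 77.4 CPM (2.66 ± 0.23). Kcnd1, a Kv4 gene, was higher by 2.64 ± 0.35 and the leak channel gene Kcnk1 by 2.53 ± 0.25. Kcnip4 reached its highest level of any named class here, 6834 and 4970 CPM (1.55 ± 0.19).

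On the other side, Kcnk9 had 2 and 6 UMIs in the class, 2.75 and 9.57 CPM, against 158.1 and 145.0 CPM in other neurons (log2 fold -4.68 ± 0.39, edgeR adjusted p 8.05e-31). Kcnmb2 fell by 3.74 ± 0.37 log2 units, to 8.25 and 9.57 CPM, and the sodium-activated channel gene Kcnt2 fell by 3.47 ± 0.39, to 13.7 CPM in library 1 and no UMI in library 2. Kcnc2, high in noradrenergic-like cells, was at 59.1 and 36.7 CPM here (-2.80 ± 0.27), and Kcnd3 was at 45.4 and 47.9 CPM (-2.46 ± 0.27). Kcnd2 was low in the trigeminal-like as in the noradrenergic-like class, at 292.7 and 165.9 CPM (-2.34 ± 0.22). The Kcnc2 and Kcnd2 levels of the 2 classes were not tested against each other, and the noradrenergic-like cells are among the other neurons of this comparison. DESeq2 ended 9 of the 33 calls and gave no adjusted p for Kcnj2.

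Granule-like neurons, which belong to the neighbouring cerebellum, had the highest level of Kcnd2 of any named class and more of the leak channel genes Kcnk12, Kcnk3 and Kcnk10 than the other neurons. Of 48 members tested 7 were higher (14.6%, against 3.64% of all 11345 genes), 4 were lower (8.33%, against 5.12%) and 37 did not pass (background 8.76% in either direction). The median log2 fold was -0.65 over the tested members and -0.28 over all genes. Library 2 held 63674 UMIs of this class, so that 3 counts there amount to 47.1 CPM, and low members could not be seen at this depth.

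Kcnk12 (chromosome 17, 87745801 to 87797994, minus strand) had 184.8 CPM in library 1 and 62.8 CPM in library 2, 46 and 4 UMIs, against 4.38 and 6.30 CPM in other neurons (log2 fold 4.72 ± 0.57, SE, n = 2, edgeR adjusted p 3.81e-14). Kcnd2 had 5413 and 3958 against 846.6 and 834.7 CPM (2.46 ± 0.46, edgeR adjusted p 6.15e-06). Kcnk3 was higher by 1.91 ± 0.46 log2 units, Kcnip3, a KChIP gene, by 1.78 ± 0.45 and Kcna1 by 1.60 ± 0.54. Kcna1 was highest in oligodendrocyte-like cells, and 8 of 10 oligodendrocyte markers reached 10 CPM in granule-like cells, with sums of 1430 and 863.8 CPM against 230.9 and 403.1 CPM in other neurons. Their part in the Kcna1 result was not tested.

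The 4 members that fell were Kcnc2 (-3.34 ± 0.54), Kcnh7 (-2.59 ± 0.46), the KChIP gene Kcnip1 (-2.38 ± 0.51) and Kcnq5 (-2.17 ± 0.46). Kcnc2 had 4 UMIs in each library, 16.1 and 62.8 CPM, against 282.7 and 314.0 CPM. Of the 11 called members 10 had the same sign in both libraries. The exception was the inward rectifier gene Kcnj12, named for that reason after its values were seen. Its 16 UMIs in library 1 came from 12 cells, library 2 had none, and library 2 alone gave a log2 fold of -2.92. That value comes from the prior count and gives no direction. In library 2 other neurons had 6.07 CPM, far under the 47.1 CPM to which 3 counts amount in this class. DESeq2 ended the calls of Kcna1, Kcnip3 and Kcnk10, testing without a low-count filter ended those of Kcna1 and Kcnj12, and without the library as a block 12 members were higher and 9 lower.

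Inhibitory-like neurons, named by markers of GABA and glycine release, and excitatory-like neurons, a cluster led by Lmx1b, differed in few members. Unnamed neuron clusters also had the excitatory marker Slc17a6 or the inhibitory markers Gad1 and Gad2 among their leading genes. The 2 classes therefore do not hold all glutamatergic or all inhibitory neurons of the region. Of 35 tested none (0) was higher in inhibitory-like neurons, 4 were lower (11.4%, against 2.44% of all 7445 genes; 2.22% were higher and 4.66% called in either direction) and 31 did not pass. At an unadjusted p under 0.05 edgeR gave 4 higher and 8 lower, and DESeq2 called 0 in both directions after adjustment, with 0 higher and 4 lower at an unadjusted p under 0.05. Kcnh8 had 7.89 and 12.5 CPM in inhibitory-like and 47.2 and 34.7 CPM in excitatory-like neurons (log2 fold -1.94 ± 0.46, SE, n = 2, edgeR adjusted p 0.00912). Kcnh5 fell by 1.49 ± 0.30 log2 units, Kcnq5 fell by 0.76 ± 0.20 and Kcnb2 fell by 0.67 ± 0.19. The median log2 fold over the tested members was -0.03, and a member that did not pass is not thereby shown to be equal in both classes. The calls of Kcnb2 and Kcnq5 also ended without the library as a block, and all 4 ended with DESeq2.

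Astrocyte-like cells were set against the other non-neuronal cells, and here the sodium-activated channel gene Kcnt1, the A-type channel gene Kcnd2, the leak channel genes Kcnk1 and Kcnk10 and the inward rectifier gene Kcnj16 were higher. Of the 6 leak channel members tested, 2 were higher and 2 lower. Of 31 members tested 7 were higher (22.6%, against 9.62% of all 7659 genes), 4 were lower (12.9%, against 11.3%) and 20 did not pass (background 20.9% in either direction), with a median log2 fold of 0.38 against -0.06 over all genes. Kcnt1 (chromosome 2, 25863734 to 25918273, plus strand), the sodium-activated channel gene, had 230.9 and 146.6 CPM (20 and 43 UMIs in 13 and 31 cells) against 4.68 and 8.40 CPM, a log2 fold of 4.61 ± 0.54 (SE, n = 2, edgeR adjusted p 4.25e-06). Kcnd2 had 3059 and 2861 against 326.7 and 215.1 CPM (3.47 ± 0.32, edgeR adjusted p 2.99e-07). Pan-neuronal markers were lower in astrocyte-like cells than in the other non-neuronal cells, 473.3 and 798.0 against 1062 and 1822 CPM, with 7 and 9 of 10 at 10 CPM. Kcnk1 was higher by 2.87 ± 0.58 log2 units, the TREK-type gene Kcnk10 by 2.46 ± 0.54 and Kcnj16 by 2.25 ± 0.67. These folds are against the other cells as a pool. Kcnk10 had 103.9 and 92.1 CPM here but 179.6 and 172.6 CPM in precursor-like cells. Kcnj16 had 46.2 and 54.6 CPM here, 64.1 and 24.7 CPM in precursor-like and 58.7 and 20.4 CPM in ependymal-like cells. Kcnk1, at 138.5 and 68.2 CPM, lay above both of those classes.

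Kcnj10 (chromosome 1, 172341210 to 172374085, plus strand) was highest in astrocyte-like cells, 415.6 and 238.7 CPM, but its level was also 249.9 and 200.4 CPM in oligodendrocyte-like and 217.7 and 117.4 CPM in ependymal-like cells, and the ranges of the first 2 classes overlapped. Against all other non-neuronal cells it did not pass (log2 fold 0.82 ± 0.33, edgeR adjusted p 0.0955). Its letters upstream of the start are shown as those of a gene shared by several glial classes (RefSeq, GRCm38.p6, chr1:172340960-172341209, plus strand, 5′ to 3′), with a GC box, GGGGCGGGG on the other strand, in capitals.
Kcnj10 start: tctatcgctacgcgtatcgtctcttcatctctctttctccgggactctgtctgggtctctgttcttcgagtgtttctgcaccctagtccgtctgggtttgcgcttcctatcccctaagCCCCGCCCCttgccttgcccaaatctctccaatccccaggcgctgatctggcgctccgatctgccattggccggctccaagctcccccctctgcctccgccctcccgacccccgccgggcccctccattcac
Lower in astrocyte-like cells were Kcnk5, with no UMI there and at least 4.46-fold lower against a floor of 3 counts over both libraries, Kcna1 with 1 UMI (pooled ratio 0.0225, 95% interval 0.000568 to 0.126), Kcna6 (0.0646, 0.00778 to 0.236) and Kcnk13 (0.0668, 0.0137 to 0.197). Kcnk5 became a member only through the other non-neuronal cells, so its fold is a description. DESeq2 ended the calls of Kcnip3, Kcnj16, Kcnk10 and Kcnma1 and gave no adjusted p for Kcnk5, and Kcnj16 also ended without the library as a block.

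Oligodendrocyte-like cells had a low summed level of the members, 1754 and 2366 CPM, but Kcna1, Kcna6 and Kcnk13 were far higher in them than in the other non-neuronal cells. Of 32 members tested 6 were higher (18.8%, against 16.2% of all 8699 genes), 18 were lower (56.2%, against 24.2%) and 8 did not pass (background 40.5% in either direction). The median log2 fold was -1.74 over the tested members and 0.01 over all genes, and all 24 called members had the same sign in both libraries.

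Kcna1 (chromosome 6, 126640397 to 126646384, minus strand) had 186.2 and 188.2 CPM in oligodendrocyte-like cells against 16.9 and 9.66 CPM, a log2 fold of 4.16 ± 0.41 (SE, n = 2, edgeR adjusted p 5.11e-07). Kcna6, its neighbour on the same strand (126708329 to 126740674), had 142.1 and 122.9 against 7.51 and 15.03 CPM (3.70 ± 0.43, edgeR adjusted p 2.19e-06). Kcnk13 (chromosome 12, 99964499 to 100062682, plus strand) had 171.5 and 189.1 against 7.51 and 25.8 CPM (3.64 ± 0.41, edgeR adjusted p 1.95e-06), its UMIs spread over 23 and 159 cells with at most 8 and 4 in 1 cell. The next named class, the precursor-like cells, had 12.8 and 49.3 CPM of it. The unnamed cluster with microglial genes had no UMI of it in library 1 and 12 in library 2 (136.4 CPM), beside oligodendrocyte markers at 445.9 and 14140 CPM whose part was not tested. The 250 bases upstream of Kcnk13 are shown as those of the leak channel gene that was highest in this class (RefSeq, GRCm38.p6, chr12:99964249-99964498, plus strand, 5′ to 3′), and hold none of these 3 motifs.
Kcnk13 start: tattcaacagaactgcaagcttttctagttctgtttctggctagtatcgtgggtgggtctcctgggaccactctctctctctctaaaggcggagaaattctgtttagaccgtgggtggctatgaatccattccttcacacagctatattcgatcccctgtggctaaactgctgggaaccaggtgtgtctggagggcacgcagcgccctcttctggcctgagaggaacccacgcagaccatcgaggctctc
Kcnj2, a classical inward rectifier gene, was higher by 1.86 ± 0.65 log2 units, and Kcnq3, with 561.1 and 729.4 against 195.3 and 303.9 CPM, by 1.66 ± 0.34. Kcnj10 was higher by 0.83 ± 0.32, a call that ended with DESeq2, with RLE size factors, without the low-count filter and without the library as a block.

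Lower in oligodendrocyte-like cells were Kcnj16 with 1 UMI (pooled ratio 0.0188, 95% interval 0.000467 to 0.110), Kcnt1 with 2 (0.0235, 0.0028 to 0.0878), Kcnip3 (-4.90 ± 0.52), Kcnk2 (-4.16 ± 0.57) and Kcnd2, at 41.7 and 69.7 against 989.5 and 1227 CPM (-4.04 ± 0.39). Both tested Kv4 members and all 3 tested KChIP members were lower, where 24.2% of all genes tested were. Pan-neuronal markers were higher in this class than in the other non-neuronal cells, with sums of 1669 and 2193 against 501.3 and 1044 CPM and 8 of 10 at 10 CPM in both groups, and their part in the higher members was not tested. Of the partner list 5 of 13 tested genes were higher (38.5%, against 16.2% of all genes) and 4 lower (30.8%, against 24.2%). Among the higher ones was Ank3, which anchors channels at the axon initial segment and node, with 3026 and 2616 against 414.9 and 472.5 CPM. Another was Lgi3 with 303.8 and 309.4 against 15.02 and 41.9 CPM. DESeq2 ended 9 calls, Kcnj2 and Kcnj10 among the higher ones and the KChIP gene Kcnip1 among the lower ones.

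Precursor-like and ependymal-like cells had no comparison of their own and are given as levels. In precursor-like cells the KChIP gene Kcnip3 (chromosome 2, 127456498 to 127522094, minus strand) had 49 and 33 UMIs in 11 and 26 cells, or 628.5 and 406.9 CPM, where the next class, the astrocyte-like cells, had 173.2 and 187.6 CPM. Kcnip1 had 641.3 and 456.3 CPM against 204.8 and 274.4 CPM in trigeminal-like neurons, where 1 cell gave 110 of 149 UMIs in library 1 and 1 gave 92 of 172 in library 2. Kcnh8 had 282.2 and 234.3 CPM against 100.2 and 102.1 CPM in ependymal-like cells. For these 3 genes the 2 libraries of the class lay above both libraries of the next one. Kcnd2, at 2770 and 1998 CPM, was high as well. In ependymal-like cells the TREK-type gene Kcnk2 had 138.2 and 97.0 CPM, above the 67.1 and 84.2 CPM of inhibitory-like neurons, and the BK beta gene Kcnmb4 had 51.8 and 81.7 CPM.

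Vascular-like cells, named here from endothelial, mural, fibroblast or erythroid markers, had the lowest sum of members, and Kcnq1, the Kv7 gene known from heart and epithelia, was far higher in them than in the other non-neuronal cells. Of 28 members tested 2 were higher (7.14%, against 12.6% of all 7590 genes), 12 were lower (42.9%, against 17.8%) and 14 did not pass (background 30.4% in either direction), with a median log2 fold of -1.27 against -0.33 over all genes. Kcnq1 (chromosome 7, 143106362 to 143427042, plus strand) had 2 and 25 UMIs in the class, 28.7 and 91.6 CPM in 2 and 20 cells, against 0 and 2 UMIs in the other non-neuronal cells, a pooled ratio of 105 (95% interval 26.5 to 915). Of 46 Kcnq1 UMIs in all, those outside the vascular-like class lie under the 20 that made a gene a member. The ratio is therefore a description. Reads of Kcnq1 may include some of Kcnq1ot1, which lies on the opposite strand. Kcnab1 was higher by 2.29 ± 0.53 log2 units, with 28.7 and 256.4 against 17.2 and 32.7 CPM, but 27 of its 70 UMIs in library 2 came from 1 cell and the call ended with DESeq2. Lower were Kcnk13 (1 UMI, pooled ratio 0.0249, 0.000628 to 0.140), Kcna1 (1 UMI, 0.0253, 0.000638 to 0.142), Kcna6 (2 UMIs, 0.0727, 0.00875 to 0.266), Kcnq3 (-4.07 ± 0.52) and Kcnj10 (-4.01 ± 0.60). Library 1 held 9 cells of the class, in which erythroid markers, mostly haemoglobin genes, summed to 79060 CPM against 0 CPM in library 2. The class joins 2 clusters, and in that with 1 and 119 cells the erythroid list scored highest, with 4 haemoglobin genes and 3 endothelial markers among its 10 leading genes. Its 1 cell of library 1 held 5502 erythroid UMIs and its 119 cells of library 2 none (0). Without that cell 2 members were higher and 9 lower, and the calls of Kcnh8, Kcnip3 and Kcnip4 ended. Without the whole cluster 1 was higher and 9 lower, the calls of Kcnh8, Kcnip3 and Kcnk5 ended, and Kcnq1, with 1 and 12 UMIs in the other cluster, was not tested. Abcc9, which encodes the regulatory subunit of vascular ATP-sensitive channels, had 344.7 and 135.5 CPM here, whereas its pore partner Kcnj8 had 2 UMIs in all of the data and is no member.

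**Figure D3:**
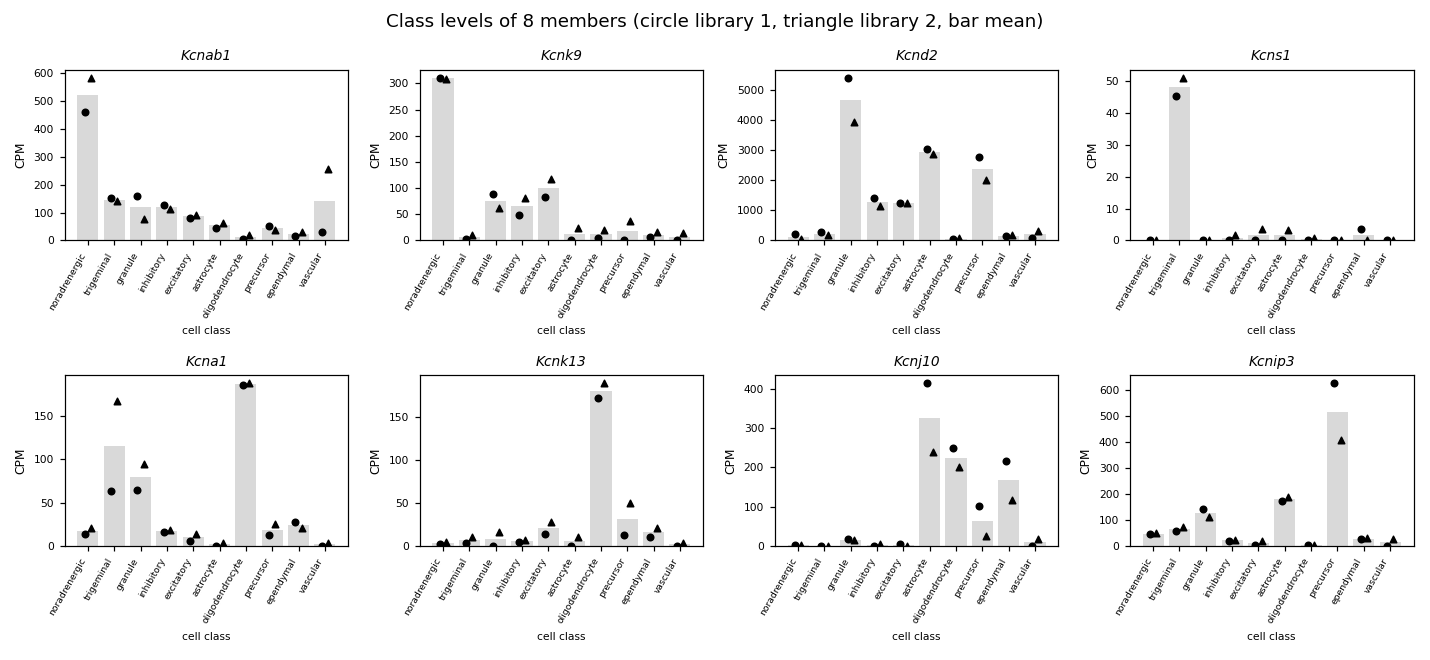
For 8 members named in the text, each panel gives the level in CPM (vertical axis) in the 10 named classes (horizontal axis), with a circle for library 1, a triangle for library 2 and a bar for their mean. Kcnab1 and Kcnk9 are highest in noradrenergic-like cells (521 and 310 CPM on average), Kcns1 in trigeminal-like neurons, Kcna1 and Kcnk13 in oligodendrocyte-like cells and Kcnip3 in precursor-like cells.

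**Figure D4:**
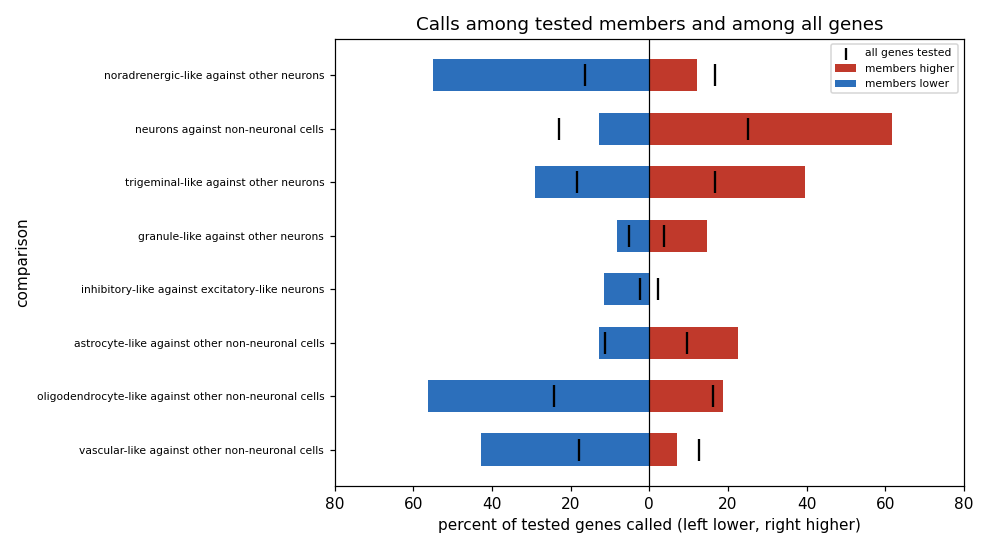
Bars give the percent of tested members called higher (right, red) or lower (left, blue) in each of the 8 comparisons, and black ticks give the same percent over all genes tested. In noradrenergic-like and oligodendrocyte-like cells the lower bar, 55.1% and 56.2%, reaches past its tick, and in neurons against non-neuronal cells the higher bar does, at 61.8%.

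Upstream sequence was found in the RefSeq table (GRCm38.p6) for 42 of the 62 members, with 63 start sites. Over the 250 bases before each start the median GC content was 60.8% (35.6% to 83.6%), against 52.4% over all 32851 windows of the table. A GC box (GGGGCGGGG) was in 11 of the 63 windows (17.5%, against 10.4% of all), and the TATA motif TATAAA in 1 (1.59%, against 12.4%), that of Kcnj16. The E-box CACGTG was in 4 (6.35%, against 6.02%), those of Kcnab1, Kcnh4 and Kcnj2. Both strands were searched, several windows belong to 1 gene, and a match describes the letters only.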

How the data were processed

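Droplet libraries of RNA (10x Genomics Chromium) were counted in 2 samples of 1 group. The authors deposited unnormalized counts, as whole UMIs for each gene in each barcode. The matrices came from Cell Ranger 6.1.2 per the file headers, while the submitters' processing notes name Cell Ranger 7.0, Seurat, mm10 and GRCm38. Cells had been called before deposit, with at least 4208 UMIs in library 1 and 500 in library 2. Whether introns were counted is not given in the sources used here.

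Barcodes needed at least 300 genes and a mitochondrial share of at most 20%, and the highest Scrublet scores were removed at 0.8% per 1000 barcodes. Counts were scaled to 10000, logged and scaled per gene (values up to 10), and clustered on 152 marker genes of 25 lists: 20 components, 15 neighbours, Leiden resolution 1.0, seed 1 (scanpy 1.11.5, anndata 0.12.19, igraph 0.11.9, scikit-learn 1.9.0, Python 3.11.15). A cluster was neuronal at 5000 CPM or more of pan-neuronal markers. It was named where at least 3 markers of a list had at least 10 CPM and stood at least 2 log2 units over the median of all clusters (with 20 CPM added), no list of another class came within 1 log2 unit, and its 10 leading genes held no more markers of another class. Endothelial, mural, fibroblast and erythroid lists shared the name vascular-like. The scaling and this scoring rule were set after clusters had been seen. The lists covered the neuron, glia, vascular, immune and dividing cells that the dissection could hold.

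UMIs were summed per class and library, at least 5 cells in each. The 4 sums of a comparison entered edgeR 4.0.16 (quasi-likelihood, TMM, filterByExpr, two-sided, library as a block, R 4.3.3, limma 3.58.1), with Benjamini-Hochberg adjustment over all genes tested and a threshold of 0.05. Both classes come from each library, which is where the pairing comes from. The fit leaves 1 residual degree of freedom and takes the spread largely from all genes together. SE and p values therefore rest little on the spread of 1 gene between the 2 libraries, which may be technical. Small p values are no measure of replication for that gene. Kcnq5 in trigeminal-like neurons, for example, gave -3.30 and -1.64 in libraries 1 and 2, with an SE of 0.26. SE is the log2 fold over the square root of F. Values of 1 library compare log2 CPM, using 2 as the prior count. A class with no UMI was set against 3 counts over both libraries, and ratios with 1 to 3 counts have exact 95% intervals. Alternatives were DESeq2 1.42.0 and those named in the closing section. The script was tested on simulated data. Positions came from GENCODE M21, which matched 62 of 62 members. Numpy 2.4.6, pandas 2.3.3, scipy 1.17.1 and matplotlib 3.10.9 were also used.

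The members, role groups and lists were chosen with earlier results of these data known. Named members passed with the same sign in both libraries, the first 10 in each direction by fold in the first 2 comparisons and the first 5 in the others. In a role group any member may be given by its values. Results of some members and list genes are not reported here.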

Additional observations from a re-analysis of the deposited data

How the results depend on the processing

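Of 122 refits of the counts of called members, 105 stayed within 1.5 times the reported count. DESeq2 gave fewer: 3 higher and 11 lower in noradrenergic-like cells (6 and 27 reported), 9 lower in trigeminal-like neurons (14), 3 higher in granule-like neurons (7), 0 lower in inhibitory-like neurons (4), 3 higher in astrocyte-like cells (7), 11 lower in oligodendrocyte-like cells (18) and 1 higher and 7 lower in vascular-like cells (2 and 12). Without the library as a replicate block, granule-like neurons had 12 higher and 9 lower (7 and 4) and inhibitory-like neurons 2 lower (4), and the noradrenergic-like comparison had 5 higher and 24 lower. At resolution 2.0, granule-like neurons had 7 lower, and inhibitory-like neurons 1 higher, as they did with at least 500 genes per barcode and with 2 times the doublets removed (0 reported). The cause was not tested. Vascular-like cells had 1 higher (2 reported) without the cluster in which the erythroid list scored highest, since Kcnq1 was then not tested. This alternative and that without 1 cell of it were chosen after seeing the data. Kcna1 turned to 0.53 in noradrenergic-like cells without trigeminal-like and granule-like neurons, and Kcnj12 in granule-like neurons (2.7) gave -2.92 without replicate 1 and 3.14 without replicate 2. The -2.92 rests on no UMI of Kcnj12 in the class and gives no direction. Of 1282 refits of single called members, 1166 kept the direction and the call, 115 kept the direction only and 1 reversed. Of 342 values from 1 library alone, 167 lay within 1 SE of the fit, 174 lay farther off in the same direction and 1 reversed. Libraries 1 and 2 alone gave 2.31 and 0.88 for Kcns2 and -2.27 and -6.23 for Kcnk2 in noradrenergic-like cells, 0.76 and 2.89 for Kcnj16 in astrocyte-like cells, 3.26 and 0.81 for Kcnj2 in oligodendrocyte-like cells, and 0.52 and 2.65 for Kcnab1 in vascular-like cells. Counts without a library could not be given, since no residual degrees of freedom remain. RLE size factors moved the median over all genes by -0.09 to 0.06 log2 units. Depth limits the scarce members most, since 3 counts are 47.1 CPM in granule-like cells of library 2 and 43.1 CPM in vascular-like cells of library 1.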

Other observations

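Genes that act beside the members were counted with the same test in the other 7 comparisons. Channel partners without a Kcn symbol (19 genes, such as the Dpp and Lgi genes and scaffold proteins) were mostly neuronal. Of 16 tested, 11 were higher in neurons than in non-neuronal cells (68.8%, against 25.0% of all genes) and 3 lower (18.8%, against 23.0%). In trigeminal-like neurons 4 of 15 were higher and 4 lower (26.7% each, against 16.6% and 18.3% of all genes). In granule-like neurons 0 of 15 were higher and 1 lower with edgeR and with DESeq2, and both tools gave 1 higher at an unadjusted p under 0.05. Over all genes edgeR called 3.64% higher and 5.12% lower in that comparison. In inhibitory-like against excitatory-like neurons 0 of 14 passed in either direction with both tools, and at an unadjusted p under 0.05 edgeR gave 0 higher and 1 lower and DESeq2 0 in both directions. There edgeR called 2.22% of all genes higher and 2.44% lower. Astrocyte-like cells had 2 of 13 higher and 4 lower (15.4% and 30.8%, against 9.62% and 11.3% of all genes). Oligodendrocyte-like cells had 5 and 4 of 13 (38.5% and 30.8%, against 16.2% and 24.2%). Vascular-like cells had 1 and 8 of 13 (7.69% and 61.5%, against 12.6% and 17.8%).

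Potassium pumps and cotransporters (11 genes) included the largest fall seen among these genes in a neuron class, in trigeminal-like cells. Slc12a5, the chloride-extruding cotransporter gene, had 4.12 and 4.79 CPM in trigeminal-like neurons, 3 UMIs in each library, against 190.5 and 195.2 CPM in other neurons (log2 fold -5.44 ± 0.41, SE, n = 2, edgeR adjusted p 2.41e-38). Trigeminal-like neurons had 1 of 9 tested genes higher and 4 lower (11.1% and 44.4%, against 16.6% and 18.3% of all genes). Granule-like neurons had 1 of 9 higher and 0 lower with edgeR, which gave 2 and 0 at an unadjusted p under 0.05, while DESeq2 gave 0 and 0 (1 and 0 unadjusted). With edgeR that is 11.1% higher, against 3.64% of all genes, of which 5.12% were lower. In inhibitory-like against excitatory-like neurons 0 of 9 passed with edgeR or DESeq2, and edgeR gave 1 higher and 0 lower at an unadjusted p under 0.05, where DESeq2 gave 0. Of all genes edgeR called 4.66% in either direction there. Neurons against non-neuronal cells gave 3 higher and 4 lower of 11 (27.3% and 36.4%, against 25.0% and 23.0% of all genes). Astrocyte-like cells gave 2 and 3 of 9 (22.2% and 33.3%, against 9.62% and 11.3%). Oligodendrocyte-like cells gave 2 and 2 of 9 (22.2% each, against 16.2% and 24.2%), and vascular-like cells 1 and 1 of 8 (12.5% each, against 12.6% and 17.8%). Slc12a2, the chloride-importing cotransporter gene, had 39.0 and 38.6 CPM in neurons and 376.3 and 364.7 CPM in other cells (log2 fold -3.26 ± 0.21, edgeR adjusted p 5.19e-06).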
